A study of Mus musculus with 22 samples.

Results

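Promoters of long non-coding RNA genes were followed through mitotic exit with and without CTCF by the RNA polymerase II (PolII) peaks that lay over them. A member was the window of 500 bp on either side of the transcription start site (TSS) of an autosomal lincRNA or antisense gene of the GENCODE vM1 annotation (mouse build mm9) whose TSS lay more than 2 kb from every protein-coding TSS. The rule kept 1419 of 34653 autosomal gene TSS windows. They comprised 566 of 1232 lincRNA genes and 853 of 1313 antisense genes. No gene of this annotation carries antisense as its own type, so an antisense gene here is a processed transcript gene with at least 1 transcript of antisense type. The rule itself used no peak value, although members were chosen with earlier results of these data known. Windows of 34 members lay within 1000 bp of another member's TSS and can share its peak.

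The cells were G1E-ER4, a mouse erythroid precursor line that lacks its own GATA1 and carries an inducible fusion of GATA1 with the oestrogen receptor. Both copies of the Ctcf gene carried an auxin-inducible degron fused to mCherry, and a retrovirus supplied the plant ligase component OsTiR together with GFP, in control and auxin samples alike. All cells were arrested in prometaphase with nocodazole, and cells of the auxin groups received auxin late in the arrest and during release, whereas control cells received none. PolII ChIP-seq peak lists were made in prometaphase at 0 h of release and at 1, 2 and 4 h, called early-, mid- and late-G1, with 2 control and 2 auxin libraries per stage and 3 and 3 in mid-G1, 18 lists in all. Cells were sorted by DNA content and by mCherry, which was retained in the control gate and lost in the auxin gate. All lists came from this engineered line. Its replicates are described as biological, and every p-value here measures the spread between these libraries.

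LincRNAs are spliced, capped PolII transcripts from their own units, typically between genes, and antisense RNAs run against a coding gene on the other strand. In this annotation some lincRNA members start inside coding genes. Some of these genes exist mainly to deliver small nucleolar RNAs (snoRNAs) from their introns, the Snhg genes among them, and others silence imprinted neighbours in cis, as Airn does at Igf2r. PolII leaves most promoters during mitosis and returns as cells enter G1. CTCF is the DNA-binding factor that anchors cohesin-made chromatin loops and boundaries.

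Fold enrichment over background in each list was turned into a rank, where rank 1 is the strongest peak of that library, because the lists hold no read counts and no common scale. A window was detected if a peak overlapped it, and the best such rank was its value. Changes are given on the −log2 rank scale, where −1 means that the rank number doubled and the peak stood lower in its list. A rank says nothing of the total amount of PolII. The 4 prometaphase lists held 2414 to 3918 peaks and the 14 G1 lists 50594 to 117125. Background coverage was 4.54 to 13.3 reads per kb. The shallowest list was mid-G1 control replicate 1. Of 10 erythroid progenitor genes checked as markers, 8 had a promoter peak in all 14 G1 libraries and none lacked a peak altogether, whereas 9 of 10 markers of other cell types had none. Gfap was the exception, with weak peaks in 9 libraries. The Ctcf promoter, whose transcription the degron leaves in place, had a peak in all 14, with a median rank of 7251 in control and 7991.5 with auxin.

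The promoters below are shown because their peaks carry the results that follow. The 9430008C03Rik and Snhg7 promoters stood lower in the lists with auxin, and 2410006H16Rik and Snhg5 were the strongest members. 5430416N02Rik and Gm2885 had a peak in all 4 prometaphase lists, as did 2410006H16Rik and Snhg5, while 9430008C03Rik and Snhg7 had one in 3. Each runs from 250 bases before to 50 bases from the TSS onward, 5′ to 3′ on the gene's strand, read from the mm9 genome. Capitals mark a match on either strand. The TATA box was searched as TATAAA, the motif of GATA factors as AGATAA, the ETS motif as CCGGAAG, the GC box as GGGCGG and the core of the CTCF motif as AGGGGGC. Matches of the GC box and ETS motif can overlap.
9430008C03Rik (Snhg17), chr2:158187267-158187566, minus strand: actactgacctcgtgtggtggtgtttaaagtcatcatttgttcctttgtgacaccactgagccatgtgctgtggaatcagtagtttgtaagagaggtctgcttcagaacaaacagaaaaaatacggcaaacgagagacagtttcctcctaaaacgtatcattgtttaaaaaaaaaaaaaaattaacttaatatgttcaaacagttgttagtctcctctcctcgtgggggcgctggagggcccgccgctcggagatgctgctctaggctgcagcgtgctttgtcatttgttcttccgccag
Snhg7, chr2:26495715-26496014, minus strand: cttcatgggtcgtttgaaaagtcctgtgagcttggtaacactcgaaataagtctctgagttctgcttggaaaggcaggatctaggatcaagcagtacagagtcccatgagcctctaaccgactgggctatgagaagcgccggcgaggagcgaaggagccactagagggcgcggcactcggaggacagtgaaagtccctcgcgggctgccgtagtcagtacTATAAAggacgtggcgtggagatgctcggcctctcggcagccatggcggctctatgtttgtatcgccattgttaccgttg
2410006H16Rik, chr11:62416129-62416428, plus strand: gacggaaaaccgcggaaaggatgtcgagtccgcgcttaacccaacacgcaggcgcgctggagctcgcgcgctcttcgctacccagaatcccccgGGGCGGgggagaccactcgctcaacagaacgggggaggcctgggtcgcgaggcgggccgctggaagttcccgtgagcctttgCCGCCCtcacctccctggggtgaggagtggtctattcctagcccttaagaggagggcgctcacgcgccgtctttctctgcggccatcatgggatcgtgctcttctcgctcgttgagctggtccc
Snhg5, chr9:88417672-88417971, minus strand: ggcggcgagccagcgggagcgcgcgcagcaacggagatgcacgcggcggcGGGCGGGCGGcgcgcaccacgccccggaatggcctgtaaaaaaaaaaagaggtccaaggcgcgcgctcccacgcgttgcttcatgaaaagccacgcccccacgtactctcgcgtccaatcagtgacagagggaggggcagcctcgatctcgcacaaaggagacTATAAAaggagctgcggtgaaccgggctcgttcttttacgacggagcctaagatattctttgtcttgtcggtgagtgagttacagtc
5430416N02Rik, chr5:100858486-100858785, minus strand: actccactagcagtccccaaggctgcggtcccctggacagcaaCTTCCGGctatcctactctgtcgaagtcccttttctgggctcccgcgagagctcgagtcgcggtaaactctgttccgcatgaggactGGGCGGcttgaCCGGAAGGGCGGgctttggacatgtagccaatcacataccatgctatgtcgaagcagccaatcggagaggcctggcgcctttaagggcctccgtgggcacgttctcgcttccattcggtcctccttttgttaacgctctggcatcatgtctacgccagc
Gm2885, chr17:7032290-7032589, minus strand: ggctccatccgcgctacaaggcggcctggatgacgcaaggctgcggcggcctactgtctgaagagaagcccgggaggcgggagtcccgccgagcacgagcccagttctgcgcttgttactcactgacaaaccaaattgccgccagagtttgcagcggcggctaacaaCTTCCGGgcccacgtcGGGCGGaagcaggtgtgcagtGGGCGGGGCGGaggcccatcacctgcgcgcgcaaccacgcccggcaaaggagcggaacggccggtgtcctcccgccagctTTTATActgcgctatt
None of the printed promoters matched the GATA or CTCF core letters in this window, and 9430008C03Rik matched none of the 5. Only these exact letters were searched, so other forms of a motif would be missed. The search therefore cannot show that a CTCF motif is absent from these promoters. The Snhg7 and Snhg5 promoters held TATAAA 30 and 37 bases before the TSS. 5730588L14Rik starts 128 bp from Snhg7 on the other strand, so its promoter is largely the same DNA read in reverse, and the same TATA letters lie 103 bases before its own TSS. 5430416N02Rik held GC box and ETS matches that run into each other, and Gm2885 held 3 GC boxes and an ETS match.

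LincRNA and antisense promoters carried PolII far less often than coding promoters. Over the 14 G1 libraries a peak overlapped 15.9% ± 2.13 (SD) of members, against 40.8% ± 1.17 of 21418 coding promoters. The members' share ran from 10.2% in mid-G1 control replicate 1 to 18.9% in late-G1 control replicate 3, and every library had the members below the coding promoters. The mean log2 ratio was −1.37 (exact two-sided sign-flip test over 14 libraries, p = 0.000122, the smallest that 16384 sign patterns can give). Member peaks were also weaker. Their median rank lay between 9334.5 and 17167.5 in the G1 libraries and that of coding promoters between 4687 and 5049.5, a mean difference of −1.48 on the −log2 rank scale (the same exact sign-flip test, p = 0.000122).

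The types of gene differed. LincRNA promoters were detected at 24.4% ± 2.40 (SD, n = 14) and antisense promoters at 10.3% ± 2.04. LincRNA shares spanned 17.3% to 27.7% and antisense shares 5.51% to 13.01%, so the ranges did not overlap. The mean difference of 14.1 percentage points exceeded the spread between libraries (exact two-sided sign-flip test, p = 0.000122). Median ranks of detected promoters were 6853.5 to 11873.5 for lincRNAs and 13350.5 to 36595.75 for antisense genes.

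**Figure D1:**
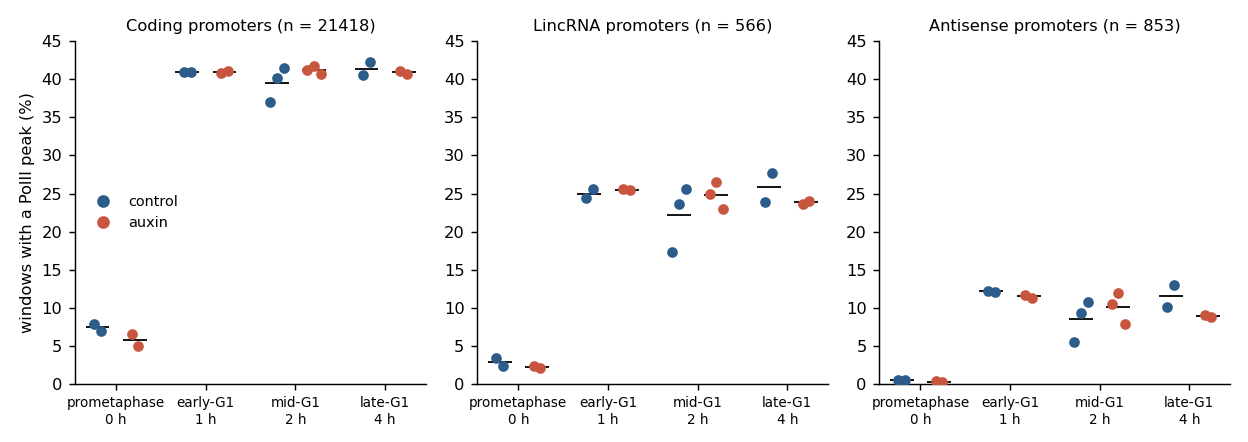
Share of TSS windows with a PolII peak (%, y axis) in each of 18 libraries by stage (x axis), with blue points for control, red points for auxin and black bars for group means. Prometaphase shares are near 0 for both non-coding types, and in G1 lincRNA promoters sit between 17.3% and 27.7%, above every antisense value and below every coding value.

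Most members never had a peak in G1. Of 1419, 1076 (75.8%) were undetected in all 14 libraries, 215 (15.2%) had a peak in 1 to 13 and 128 (9.02%) in all 14. Among coding promoters 36.2% had a peak in all 14. The all-14 set held 92 lincRNA promoters (16.3% of that type) and 36 antisense promoters (4.22%). Depth bounds this count, because a weak promoter missed in the shallowest list leaves the set.

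Position relative to coding genes was read at both levels of detection, and for lincRNAs these gave opposite orders. LincRNA promoters outside coding genes were in the all-14 set in 76 of 366 cases (20.8%), and those inside a coding gene of the opposite strand in 16 of 186 (8.602%). The corresponding antisense counts were 14 of 268 (5.22%) and 18 of 564 (3.19%). At least 1 G1 library detected 112 of the 366 lincRNA promoters outside coding genes (30.6%) and 74 of the 186 inside (39.8%), and for antisense promoters 52 of 268 (19.4%) and 92 of 564 (16.3%). For the members inside a coding gene, the state of that gene's own promoter separated the counts. Where the host promoter had a peak in all 14 libraries, 137 of 255 members (53.7%) were detected at least once, and where it had none, 29 of 478 (6.07%) were. The all-14 set held 29 of those 255 (11.4%) and 5 of the 478 (1.05%). The peak summit lay inside the window in every library for 4 of the 255 and 3 of the 478. Of members outside coding genes, 31 of 128 (24.2%) starting within 5 kb past a coding gene's end were in the all-14 set, compared with 59 of 506 (11.7%) elsewhere. A peak over such a window can belong to PolII that transcribes the coding gene, and peak lists cannot tell these apart.

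**Figure D2:**
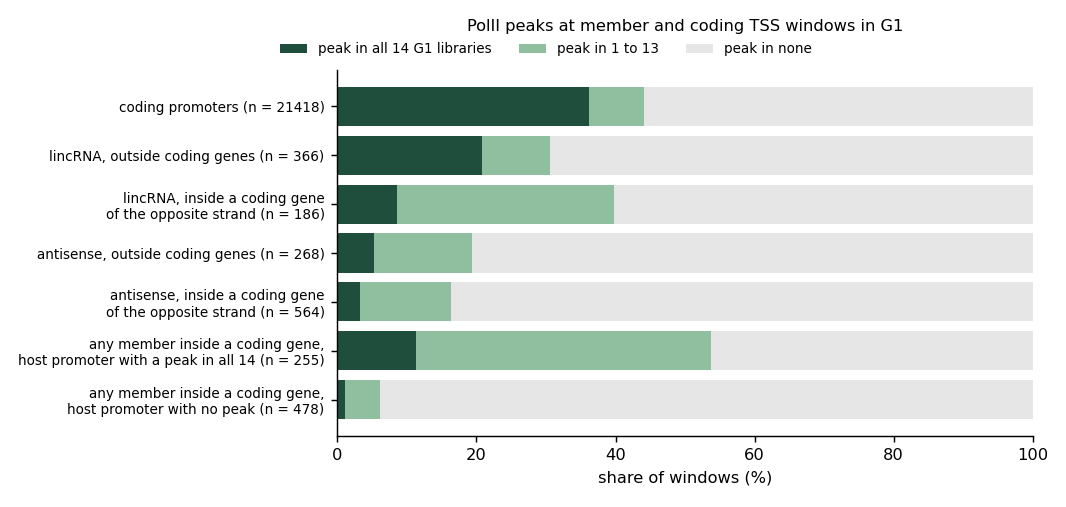
Share of windows (%, x axis) with a peak in all 14 G1 libraries, in 1 to 13, or in none, for coding promoters and for members by type and position (y axis). Members inside a gene whose own promoter had no peak were almost empty, at 6.07% detected, and lincRNA promoters outside coding genes held the largest all-14 share of the member classes drawn, at 20.8%.

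Summit position gave a stricter view of promoter-centred peaks. Of the 128 members in the all-14 set, 57 had the summit of the best peak inside the window in all 14 libraries, 49 of them lincRNAs and 8 antisense genes, and 6 had it inside in none. The share of members with a summit in the window in G1 was 12.5% on average, and for coding promoters 36.9%. Nespas (RefSeq name Gnasas1), the antisense transcript of the imprinted Gnas cluster, is of lincRNA type in this annotation and was an example of displacement. Its window lies in an intron of Gnas on chromosome 2 and was overlapped in all 14 libraries by a peak whose summit lay at −1957.5 bp from the TSS in the median, that is upstream. 4930443B20Rik, an antisense gene whose TSS lies 2889 bp from that of 2410006H16Rik, was overlapped in every G1 library by the peak centred on the latter, and its ranks there were the same.

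**Figure D3:**
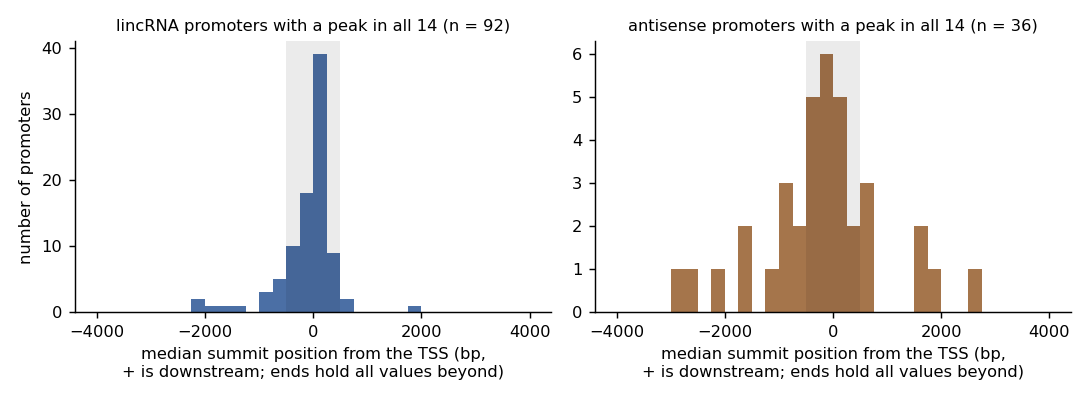
Median position of the peak summit relative to the TSS (bp, x axis) for the 92 lincRNA and 36 antisense promoters with a peak in all 14 G1 libraries (number of promoters, y axis), with the scored window in grey. LincRNA summits cluster in the window, while antisense summits spread to beyond 2000 bp on either side.

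Base composition, which the rule did not use, went with detection. A promoter was counted as CpG-rich if its 300 bases had a GC content above 50% and an observed-to-expected CpG ratio above 0.6. CpG-rich sequence made up 50 of 128 members in the all-14 set (39.1%), 31 of the 57 with a centred summit (54.4%), 16 of 215 detected in part (7.44%) and 70 of 1076 never detected (6.51%). Coding promoters in the all-14 class were CpG-rich in 75.1%. The ETS letters occurred in 29.8% of the 57 centred members, in 4.00% of undetected members and in 7.87% of all 34653 promoters of this length. The GC box occurred in 61.4%, 14.03% and 31.5% of the same classes, TATAAA in 10.5%, 11.0% and 15.8%, and AGATAA in 5.26%, 13.8% and 12.5%. AGGGGGC was present in 5.26% of the centred members, 4.93% of undetected members and 9.14% of all promoters. GC-rich motifs and CpG-rich sequence overlap by construction, and a match of letters is not a bound site. Nor does a lack of these exact letters show that a motif is absent.

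Very few members held PolII in prometaphase. The detected share was 1.62% and 1.20% in control and 1.13% and 0.987% with auxin, as against 4.98% to 7.89% of coding promoters. Members in G1 exceeded prometaphase by a mean log2 ratio of 3.70 (exact two-sided permutation test within auxin condition over every arrangement, p = 0.000772). The prometaphase lists were far shorter, so the ratio reflects what passed the peak caller in each. A total of 29 members had a peak in at least 1 prometaphase library and 10 in all 4. Of these 10, 9 were lincRNA genes and 9 had CpG-rich promoters.

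The 10 members with mitotic peaks were led by genes that carry snoRNAs. 2410006H16Rik (chr11:62416379-62418309), which holds Snord49a, Snord49b and Snord65, ranked 111 and 102.5 in control prometaphase and 67.5 and 108.5 with auxin. Snhg5 (chr9:88415894-88417721), which holds SNORD50, ranked 92 and 126 in control and 224.5 and 48.5 with auxin. The conditions overlapped for both genes. Snhg12, the host of 4 kinds of snoRNA (Snora16a, Snora44, Snora61 and Snord99), ranked between 231 and 457 over the 4 lists. Gm11974 (Snhg15), with SNORA9, ranked between 632.5 and 2621.5, and 2410004N09Rik (Epb41l4aos) between 279 and 1030.5.

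The remaining 5 had no annotated snoRNA. 5430416N02Rik ranked between 142.5 and 213.5, and Gm2885 between 294.5 and 562.5. Nespas (611 to 2436), Gm2529 (1658.5 to 3399) and 4930443B20Rik (315 to 675) were overlapped by peaks whose median G1 summits lay outside the window. Gm2529 starts 2276 bp from the TSS of Ier2, an immediate early gene, and its median summit lay at −868 bp from its own TSS.

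Members that carry snoRNA genes had a higher count and stronger peaks, given here as a description with no test. Of 18 members with a snoRNA gene inside them on the same strand, 10 (55.6%) were in the all-14 set, 5 were detected in all 4 prometaphase lists, and 6 were never detected in G1. Of the 1374 members with neither a snoRNA nor a miRNA gene, 113 (8.22%) were in the all-14 set. Members with a miRNA gene reached the set in 5 of 28 cases (17.9%). In G1 the snoRNA hosts included 2410006H16Rik, whose ranks ran from 13 to 46.5 with a median of 28.8, and Snhg5, from 24 to 511.5 with a median of 46. Then came Snhg4 at a median of 179, Epb41l4aos at 273.5, Snhg7 at 396.2, Snhg15 at 683.2, Snhg12 at 906 and Snhg17 at 1835. 2700038G22Rik followed at 4394.5 and 9330159M07Rik at 14525.2. Neighbours in this order had overlapping ranges over the 14 libraries, except the last pair, since 2700038G22Rik ended at 4973 and 9330159M07Rik began at 7098.5. Rian, the snoRNA host of the imprinted Dlk1-Dio3 region, was among the undetected.

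The strongest members with a centred summit in every library were 2410006H16Rik, Snhg5, 5430416N02Rik, Epb41l4aos, Gm2885, Snhg15, A930006K02Rik, Gm11202, 4930471M09Rik and BC029722. Only Gm11202 (Rab11fip4os1), in an intron of Rab11fip4, was of antisense type. 5430416N02Rik ranked from 98 to 2779 in G1, with a median of 165.8, and the value of 2779 came from late-G1 control replicate 3. A930006K02Rik lies 20134 bp from the TSS of Ifnar1, which encodes a chain of the type I interferon receptor, and ranked from 467.5 to 1241. Gm11202 ranked from 335 to 1544. BC029722 ranked from 873.5 to 3372 and is protein-coding in RefSeq. Of the 690 members that could be matched to a RefSeq gene, 40 are protein-coding there, 8 of them in the all-14 set.

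Of 35 long non-coding RNAs listed by name, 18 were members, 8 of them in the all-14 set and 10 never detected in G1. Besides the Snhg genes, Nespas and Epb41l4aos, the detected genes were Airn, Dleu2, 1700020I14Rik and Gm16197. Airn ranked from 1374 to 4416.5 in control and from 1017.5 to 3321 with auxin, with the summit in its window in all 14. Dleu2, the host of miR-15a and miR-16-1 on chromosome 14, ranked from 1790.5 to 4828 in control and from 1450 to 3303 with auxin. 1700020I14Rik (Oip5os1, also called Cyrano) ranked from 1102.5 to 4660.5 over G1, and Gm16197 (Trp53cor1, or lincRNA-p21), a p53 target beside Cdkn1a, from 2662.5 to 11496.5. Control and auxin overlapped for each of these 4 genes.

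No G1 peak overlapped Meg3, Rian, Mirg, Pvt1, Gm14005 (Morrbid), Dnm3os, Rmst, Miat, Gm16258 (Hotair) or Sox2ot. Meg3, Rian and Mirg belong to the same imprinted cluster, while Rmst, Miat and Sox2ot are best known from neural cells. Pvt1, the neighbour of Myc, was scored at its annotated gene start only.

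Among members whose nearest coding promoter was a haematopoietic gene, 3 of 10 were in the all-14 set and 5 were never detected. Gm12000, in an intron of Ikzf1, ranked from 6060.5 to 31587 in G1. Gm16786, over an exon of Myb on the opposite strand, ranked from 8385 to 57901.5, and Gm16801, in an intron of Runx1, from 14548 to 65942.5. None of the 3 passed the test with auxin (limma, adjusted p = 0.929, 0.886 and 0.996). The 2 antisense windows in Bcl11a, Gm12064 and 4930538E20Rik, were each detected in 13 libraries. Gm11616 (Bloodlinc), a lncRNA known from terminal erythroid maturation, had no peak in the G1 libraries.

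No difference in the number of members with PolII was detectable between auxin and control. In early-G1 17.3% ± 0.299 (SD, n = 2) of members were detected in control and 17.1% ± 0.249 (n = 2) with auxin (exact permutation test, p = 0.667). Mid-G1 gave 13.98% ± 3.36 (n = 3) and 15.95% ± 1.95 (n = 3; exact permutation test, p = 0.6), and late-G1 17.2% ± 2.34 (n = 2) and 14.9% (14.9% in both libraries; exact permutation test, p = 0.333, the smallest that 2 against 2 allow). Averaged over the 3 stages the difference was −0.188 percentage points (exact two-sided permutation test within stages over 720 arrangements, p = 0.828), and its sign turned in 6 alternatives. No member had a peak in all 7 libraries of a condition and in none of the other, and across all 11905 windows with a G1 peak 0.0084% did. Among the 215 members detected in 1 to 13 libraries, 83 were found in more control libraries, 90 in more auxin libraries and 42 in equally many, and the widest gaps were 4 and 5 libraries.

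Ranks of the 128 all-14 members were compared in a limma fit over all 8852 windows with a peak in all 14 G1 libraries. Averaged over the 3 stages, 5 members stood lower with auxin and 0 stood higher, at an adjusted p under 0.05. They were 9430008C03Rik (Snhg17), 4930444E06Rik, 2410004N09Rik (Epb41l4aos), Snhg7 and 5730588L14Rik, the last pair of which share their peak, so that the calls rest on 4 peaks. Of all 8852 windows 0.328% were called lower and 0.463% higher. At an unadjusted p under 0.05, 11 members were lower and 3 higher. Of the 128, 71 (55.5%) had a negative change, against 46.2% of all windows, and the members' median change was −0.06 on the −log2 rank scale compared with 0.03 for all windows. The change was smaller than 0.5 on that scale in 98 members. Leaving out early-G1 auxin replicate 1 removed all 5 calls, and over all libraries left out in turn the count ran from 0 to 7. Of the alternatives run, Snhg7 lost its call in 14, Epb41l4aos in 6, 4930444E06Rik in 5 and Snhg17 in 4, with no change of sign.

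9430008C03Rik, RefSeq Snhg17, is a lincRNA gene at chr2:158181043-158187316 on the minus strand that holds 3 SNORA71 genes. Its peak ranked 998 and 2365.5 in the early-G1 control libraries and 6144 and 5944.5 with auxin. In mid-G1 it ranked 411, 600 and 1382 in control and 4676, 2157 and 4719.5 with auxin, and in late-G1 626 and 1339 in control and 2432.5 and 1513 with auxin. Every auxin library stood lower than every control library of its stage. The change was −1.81 ± 0.33 (SE; limma, adjusted p = 0.0155). Fold enrichment was 29.3 to 45.8 in control (median 38.7) and 20.8 to 35.8 with auxin (median 23.0). In prometaphase the same peak ranked 434 and 874.5 in control and 1139.5 in auxin replicate 1, and was not called in auxin replicate 2.

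2410004N09Rik, RefSeq Epb41l4aos, is a lincRNA gene outside coding genes at chr18:33954575-33955640. It ranked 93 and 134.5 in early-G1 control and 230 and 196 with auxin. Mid-G1 ranks were 225, 317 and 366 in control and 1020, 744 and 558 with auxin, and late-G1 ranks 175.5 and 128 in control and 420.5 and 395 with auxin. The groups were separate in each stage, with a mean change of −1.24 ± 0.22 (SE; limma, adjusted p = 0.0118). The prometaphase lists, which were not in the fit, had the same order, with 303.5 and 279 in control and 556 and 1030.5 with auxin. Fold enrichment ranged from 46.1 to 80.5 in control and from 40.5 to 65.8 with auxin and so overlapped when stages were pooled.

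Snhg7 (chr2:26492697-26495764, minus strand) holds Snora17 and Snora43, and its divergent antisense partner 5730588L14Rik starts on the other strand. Their peak ranked 516.5 and 314.5 in early-G1 control and 1176 and 930.5 with auxin. It ranked 343.5, 290 and 211.5 in mid-G1 control and 655, 369.5 and 423 with auxin. In late-G1 it ranked 354.5 and 238 in control and 1150.5 and 552 with auxin. Within stages the conditions did not overlap, and the change was −1.20 ± 0.25 (SE; limma, adjusted p = 0.0358). Median fold enrichment differed little, at 48.9 in control and 44.0 with auxin, and its ranges overlapped.

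4930444E06Rik is an antisense gene at chr2:144068977-144070585, 9436 bp from the TSS of Snx5, a sorting nexin. It ranked 1880 and 1392 in early-G1 control and 7995.5 and 3639 with auxin, 1927, 1702.5 and 5138 in mid-G1 control and 6313, 10165 and 5319 with auxin, and 7098.5 and 12524.5 in late-G1 control and 27185.5 and 40572.5 with auxin. Each stage kept the conditions apart, and the change was −1.67 ± 0.31 (SE; limma, adjusted p = 0.0155). The summit lay 2603.5 bp downstream of the TSS in the median and within the window in 3 libraries, so this peak was not centred on the annotated start.

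**Figure D4:**
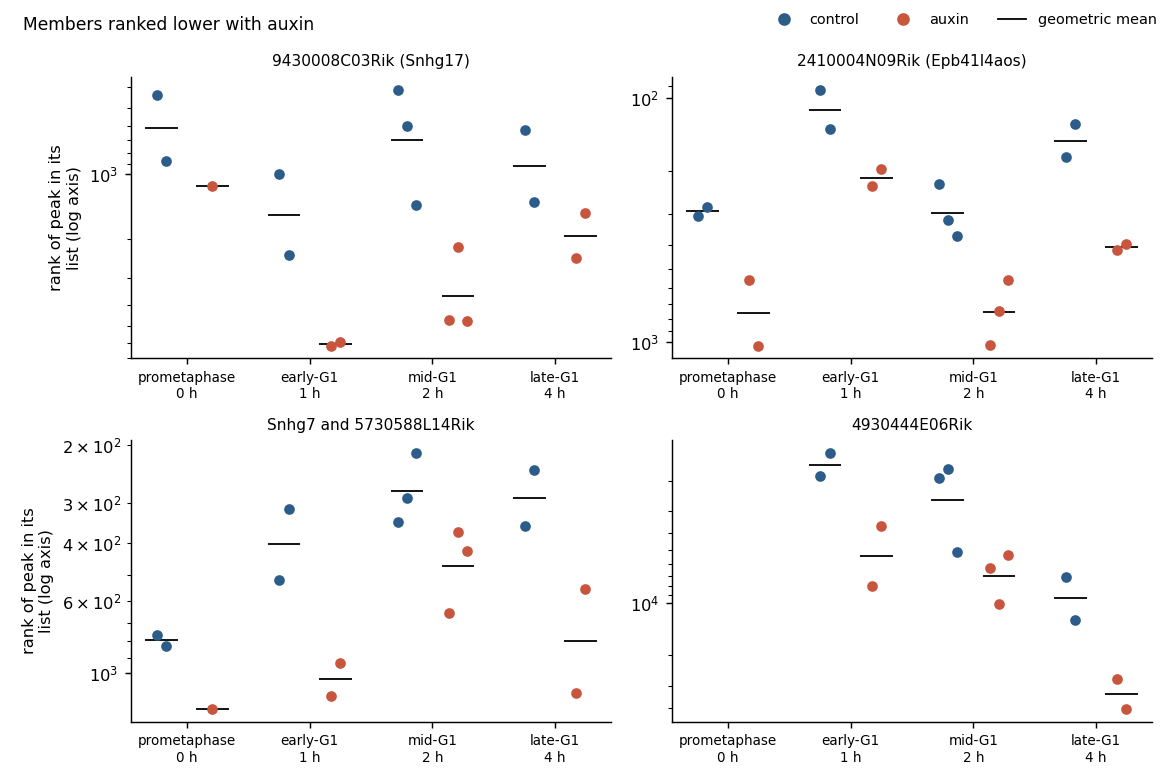
Rank of the peak in its own list (log axis, inverted so that stronger peaks are higher) by stage for the 4 peaks of the 5 members called lower with auxin, with a point per library and black bars for geometric means. In all 3 G1 stages each red auxin point lies below every blue control point, and 4930444E06Rik has no prometaphase peak.

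The snoRNA hosts had changes of both signs. Of the 10 in the all-14 set, 7 had a negative change and 3 were called, with a median of −0.25, whereas 64 of the other 118 members were negative with a median of −0.06. 2410006H16Rik changed by 0.22 ± 0.25 (SE), Snhg5 by 0.41 ± 0.25 and Snhg15 by 0.38 ± 0.26, none of which passed the test (limma, adjusted p = 0.852, 0.677 and 0.73). Snhg12 changed by −0.57 ± 0.26 (adjusted p = 0.555) and Snhg4 by −0.34 ± 0.34 (adjusted p = 0.826).

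No member passed the test within a stage. Early-G1 had 0 of 128 members called, where 0% of all windows were called lower and 0.0226% higher, and 9 members were lower and 5 higher at an unadjusted p under 0.05. Mid-G1 had 0 members called beside 0.0678% lower and 0.181% higher of all windows, with 8 and 7 members at the unadjusted threshold. Late-G1 had 0 called beside 0.0904% and 0.0678%, with 7 and 1. The auxin effect differed between stages in 0 members and in 0.0113% of all windows (limma F test), and 7 members had an unadjusted p under 0.05. For Snhg17 the stage changes were −1.98 ± 0.61, −2.38 ± 0.50 and −1.07 ± 0.61 (SE) in early-, mid- and late-G1.

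More members were called between early-G1 and late-G1. With the conditions averaged, 9 members ranked lower and 10 higher in late-G1 (7.03% and 7.81% of 128), where 6.91% of all windows were lower and 4.96% higher. With so few members these shares were not set apart from the background. These 19 members had 18 distinct peak sets. The median change was 0.11 for members and −0.02 for all windows. Total detection had a late-minus-early difference of −1.13 percentage points (exact two-sided permutation test over 36 arrangements, p = 0.167). These 36 arrangements cannot give a p under 0.05, so the test could not decide whether detection differed. With every list limited to its 50594 strongest peaks the difference was 0.247. It was −0.30 without late-G1 control replicate 2, and −1.96 without late-G1 control replicate 3.

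Snhg5 had the clearest decline. Its peak ranked 47.5 and 24 in early-G1 control and 32 and 24 with auxin, 40 to 57 in mid-G1 over both conditions, and 198 and 511.5 in late-G1 control and 220.5 and 171 with auxin. All late libraries stood below all early ones, with a change of −3.02 ± 0.33 (SE; limma, adjusted p = 9.14e-05). Fold enrichment was 88.1 to 98.3 in early-G1 and 55.3 to 61.2 in late-G1. The change was −3.24 ± 0.46 in control and −2.81 ± 0.46 with auxin.

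Other members that stood lower in late-G1 differed in where their summits lay. 4930444E06Rik, described above, changed by −2.58 ± 0.40 (limma, adjusted p = 0.00109). Gm17275 starts over an exon of the histone gene H3f3a on the opposite strand, 10966 bp from the H3f3a TSS. It changed by −2.04 ± 0.47 (adjusted p = 0.0112), from ranks of 341 to 492 in early-G1 to 1330 to 2575 in late-G1. The Gm17275 summit lay at −649 bp in the median and never in the window. 5430416N02Rik changed by −1.81 ± 0.53 (adjusted p = 0.0396), from 108 to 164 in early-G1 to 272 to 2779 in late-G1. Its summit lay in the window in all 14 libraries. Without late-G1 control replicate 3 its change was −0.98 and missed the threshold (limma, adjusted p = 0.0807). Gm17525, over an exon of Rbbp4 on the opposite strand, changed by −1.66 ± 0.50 (adjusted p = 0.0433), and lost the call in 12 of 21 alternatives (limma, adjusted p up to 0.168). 4930471M09Rik, with its summit in the window in all 14 libraries, changed by −1.30 ± 0.31 (adjusted p = 0.0139). Oip5os1, also with a centred summit in all 14, changed by −0.83 ± 0.24 (adjusted p = 0.0385). Its change was −0.39 ± 0.34 in control and −1.27 ± 0.34 with auxin. Its mid-G1 ranks, 3610.5 to 4660.5, stood lower than its late-G1 ranks, 2235 to 3277.5.

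Members that rose in the lists were mostly little-studied genes. Most of these calls depended on the rank scale. With rank divided by list length, 2 members were called higher and 5 lower, in place of 10 and 9. Early-G1 lists held 100031 to 107213 peaks and late-G1 lists 74154 to 117125. Gm15024, an antisense gene in an intron of Tspan32 that starts 2105 bp from its TSS, changed by 3.27 ± 0.99 (SE; limma, adjusted p = 0.0436), from ranks of 16172 to 67868 in early-G1 to 714.5 to 50143.5 in late-G1, so the stages overlapped. Without late-G1 auxin replicate 2 the change was 1.97 (adjusted p = 0.181). B230398E01Rik ranked 16156.5 to 28593 in early-G1 and 3110 to 6009 in late-G1, a change of 2.07 ± 0.42 (adjusted p = 0.00556). It starts 487 bp past the end of a coding gene. Its summit lay 1623 bp downstream of the TSS in the median and inside the window in 3 libraries, so the peak can belong to that coding gene. 9330159M07Rik, a SNORD50 host, and its neighbour Gm17694 share a peak that went from 14816.5 to 91903 in early-G1 to 7098.5 to 11666.5 in late-G1, a change of 1.96 ± 0.49 (adjusted p = 0.0181) that was 1.30 without early-G1 auxin replicate 2 (adjusted p = 0.0742). Gm15587, over an exon of Nos3 on the opposite strand and with a centred summit in all 14 libraries, changed by 1.82 ± 0.42 (adjusted p = 0.0114).

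Snhg12 rose by 1.61 ± 0.34 (SE; limma, adjusted p = 0.00728), from ranks of 440.5 to 1083.5 in early-G1 to 165 to 347 in late-G1, with no overlap between these stages. Snhg5 and Snhg12, both snoRNA hosts with prometaphase peaks, thus moved in opposite directions within the same libraries. 2410006H16Rik stayed at 13 to 46.5 throughout G1 and changed by 0.18 ± 0.32 (adjusted p = 0.778).

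**Figure D5:**
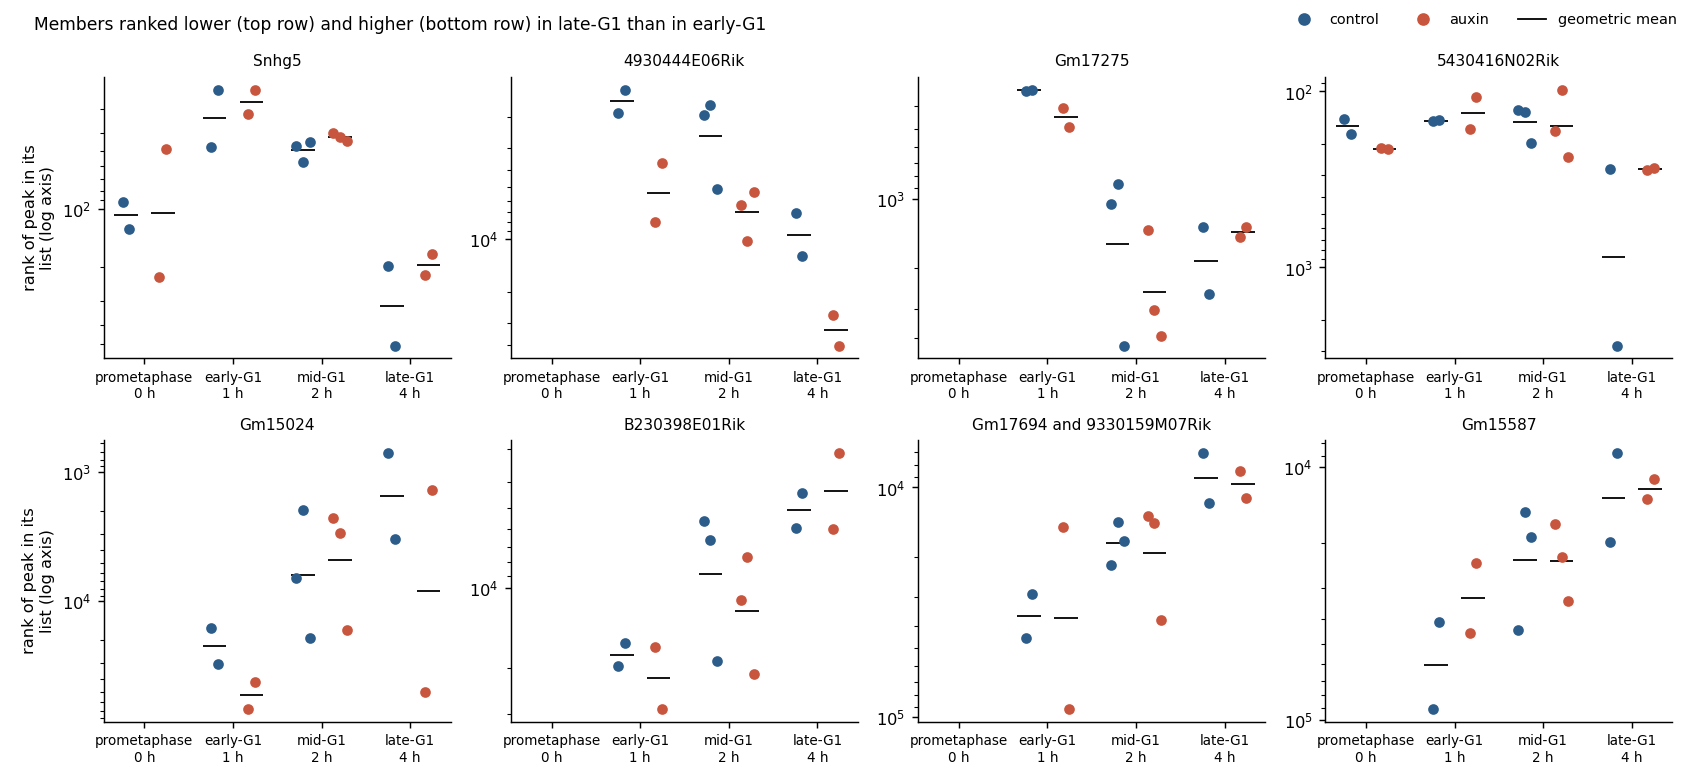
Rank of the peak in its list (log axis, inverted so that stronger peaks are higher) by stage, with a point per library and black bars for geometric means. Of the members named by the size of their change, the top row shows 4 that stood lower in late-G1 and the bottom row the peaks that stood higher, among which Gm15024 has late-G1 values spread from 714.5 to 50143.5.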

How the data were processed

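The authors aligned PolII ChIP-seq reads of G1E-ER4 cells to mm9 with Bowtie2 2.2.9, removed reads of mapping quality under 10, duplicates and blacklisted regions (SAMtools 0.1.19, bedtools 2.27.1), and called peaks in each library with MACS2 2.1.0 at a q-value of 0.01. The deposited lists give fold enrichment (a ratio over local background), −log10 p and q values, a display score that was not used, and the summit. No list existed for the 4 input samples, and no read counts were used, so depth was judged from coverage recovered from fold and p, with 100% of peaks giving whole reads (tolerance 0.02).

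Peaks were ranked by fold enrichment within each list, ties averaged, and the best rank of the peaks overlapping each window was taken. GENCODE vM1 gave the windows. Names were matched to RefSeq by symbol or synonym. Shares were compared with exact permutation or sign-flip tests over libraries. −log2 ranks of the 8852 windows with a peak in all 14 G1 libraries were fitted with limma 3.58.1 in R 4.3.3, with a mean per stage and condition, empirical Bayes and Benjamini-Hochberg adjustment over all windows. 

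Members and lists were chosen with earlier results of these data known. Named members were the 10 best ranked with a centred summit, those called with auxin, the 5 largest early-to-late changes each way, those in all 4 prometaphase lists, and members of the lists of known lncRNAs and haematopoietic neighbours. Others named are examples chosen after their values were seen. Alternatives were a q threshold of −log10 q at least 5, summit in window, windows of 250 bp, a coding distance of 5 kb, coding TSSs from gene records, equal list sizes, other rank scales, a peak in at least 10 of 14 libraries, merged windows, limma-trend, a replicate block and each library left out.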

Additional observations from a re-analysis of the deposited data

How the results depend on the processing

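Every alternative run kept the direction and the call of the prometaphase, coding, rank and lincRNA-antisense comparisons. The prometaphase comparison was not run with equal list sizes, so its dependence on list length was not tested. The overall auxin difference in detection, −0.188 percentage points, never passed its test and turned to 0.0191 with a coding distance of 5 kb, 0.11 with summits in the window, 0.364 without late-G1 control replicate 3, 0.157 without mid-G1 auxin replicate 3 and 0.266 without mid-G1 control replicate 3. Leaving out a library gave −0.814 (mid-G1 control replicate 1) to 0.364. With equal list sizes the late-minus-early difference turned to 0.247, and leaving out a library moved it between −1.96 and −0.30.

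The 5 members called with auxin became 2 by limma-trend, 1 by normal score, 2 by rank over list length and 2 with summits in the window. Leaving out a library gave 0 to 7: 0 without early-G1 auxin replicate 1, 1 without early-G1 control replicate 1, 2 without early-G1 control replicate 2, early-G1 auxin replicate 2 or late-G1 auxin replicate 1, and 3 without mid-G1 control replicates 2 or 3, mid-G1 auxin replicates 1 or 3 or late-G1 control replicate 3. Without the shallow mid-G1 control replicate 1 the 5 calls were kept. The change of Snhg7 lost its call in 14 of 22 alternatives (adjusted p up to 0.233), Epb41l4aos in 6 (up to 0.292), 4930444E06Rik in 5 (up to 0.0802) and Snhg17 in 4 (up to 0.0833), and none changed sign. The late-G1 auxin count rose from 0 to 1 with a peak in at least 10 libraries and from 0 to 3 at most on leaving out a library. In mid-G1 it was 1 with summits in the window, 2 with merged peak regions and 0 to 1 on leaving out a library. The count of differing stages was 0 to 1 on leaving out a library.

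The 19 members called from early- to late-G1 became 7 by rank over list length (5 lower and 2 higher). With summits in the window they became 11 (5 lower and 6 higher). Leaving out a library gave 7 to 23: 7 without early-G1 control replicate 1, 8 without early-G1 auxin replicate 1, 9 without early-G1 control replicate 2 or early-G1 auxin replicate 2, and 10 without late-G1 auxin replicate 1 or 2. Snhg5, 4930444E06Rik and B230398E01Rik kept the call in every alternative that could be fitted. Gm15024 and Gm17525 each lost it in 12 alternatives, 5430416N02Rik in 9, the shared peak of 9330159M07Rik and Gm17694 in 5, Gm15587 in 3 and Gm17275 in 1.

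Replicate numbers are shared between conditions, but same-numbered libraries did not all deviate together (correlations 0.0386 to 0.304), so they were not taken as pairs. With the replicate block 3 members were called, 2 of them shared with the fit without it, and the paired difference in detection was 0.81 percentage points (exact sign-flip test over pairs, p = 0.688). Depth limits weak promoters most, and ranks cannot show a change common to all peaks.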
